A study of Arabidopsis thaliana with 12 samples.

Results

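The SAUR (small auxin-up RNA) genes measured here are SAUR10 (AT2G18010), SAUR4 (AT4G34800), SAUR53 (AT1G19840), SAUR57 (AT3G53250) and SAUR58 (AT1G43040). The family was chosen with earlier results of these data known. Within it, members were taken by name, as every probe set that the platform annotation pairs with exactly 1 gene of such a name. The gene symbol or a synonym in the RefSeq gene table had to be SAUR followed by a number. This gave 5 of 16746 single-gene probe sets. The RefSeq table names 80 SAUR loci, and the other 75 matched no probe set by name and are not analysed here. Of the 28583 probe sets, 11079 have no gene named in the annotation. Whether unmatched genes lie among them was not tested, so a gene is called measured here only where a single-gene probe set was matched to it. No SAUR locus tag was found among the gene symbols of the probe sets paired with several genes. Their gene numbers and synonyms were not searched. Wild-type Arabidopsis thaliana seedlings of the Col-0 ecotype, 7 days old per the labels, were kept in shaken liquid culture before treatment. The mock groups received 0.1% DMSO, and the IAA groups received the auxin indole-3-acetic acid at 1 µM, dissolved in DMSO. Treatment lasted 15 min or 3 h, and 1 array of whole-seedling RNA was run for each of 3 replicates in each of the 4 groups, from an experiment done on 3 different days. One protocol field of the labels lists other treatment times than the titles, so the early time of 15 min is taken from the titles and the time field. The growth period is stated elsewhere in the design as 6 or 7 days.

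SAUR genes form one of the classical families of early auxin-response genes, and many of their short transcripts appear within minutes of auxin and decay fast. The small SAUR proteins bind and inhibit phosphatases of the PP2C.D clade, which otherwise switch off the proton pumps (AHA) of the plasma membrane. With the phosphatases held back, the pumps acidify the cell wall and the cell expands. Auxin reaches these genes through TIR1/AFB receptors, which have Aux/IAA repressors destroyed and so free the auxin response factors (ARFs) on the promoters. Not all family members answer to auxin, and some are set by light, brassinosteroid or developmental cues. SAUR10 is also known as a gene repressed by the MADS-domain factor FRUITFULL.

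Each value is a log2 expression level made by the authors with RMA, a method that corrects background, brings arrays to a common scale and combines the probes of a probe set. Differences were tested with limma over all 17504 probe sets with a gene name, and those under 0.05 after Benjamini-Hochberg adjustment count as called. The 4 arrays numbered 1 stood apart, with interquartile ranges of 2.88 to 3.79 against 3.89 to 3.92 on the other 8, and the IAA 3 h array numbered 1 was the most compressed. The changes of the SAUR genes with IAA are therefore also given without these 4 arrays. With 3 arrays a group the precision is limited, and the p-values rest on the spread between repeats of 1 experiment. Of the listed tissue markers 2 of 5 for root and 1 of 5 for shoot were measured. PYK10, an abundant root transcript, had group means of 11.2 to 11.4, and RCA, the rubisco activase of green tissue, of 10.5 to 10.6. EXPA7, the other root marker measured, was low, with group means of 4.04 to 4.28 beside array medians of 4.72 to 4.79. That root and shoot were both represented thus rests on 1 abundant marker each. In RNA from whole seedlings, a higher level per cell and a larger number of expressing cells cannot be told apart.

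SAUR10 was the member whose level was higher in all IAA arrays than in all mock arrays of the same time. At 15 min its log2 level was 3.23, 3.0 and 2.53 in mock arrays 1 to 3. In the IAA arrays of that time it was 4.44, 4.0 and 4.23. At 3 h it was 2.46, 2.13 and 2.55 in mock. The IAA arrays at 3 h stood at 4.17, 3.61 and 3.03. The lowest IAA array exceeded the highest mock array at both times, with the smallest gap at 3 h, where IAA array 3 lay closest to mock. Such a separation at both times was found in 0.309% of the 17504 probe sets tested, at 15 min alone in 2.11% and at 3 h alone in 6.56%. Of the 5 SAUR genes, SAUR10 was the 1 with it at either time.

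**Figure D1:**
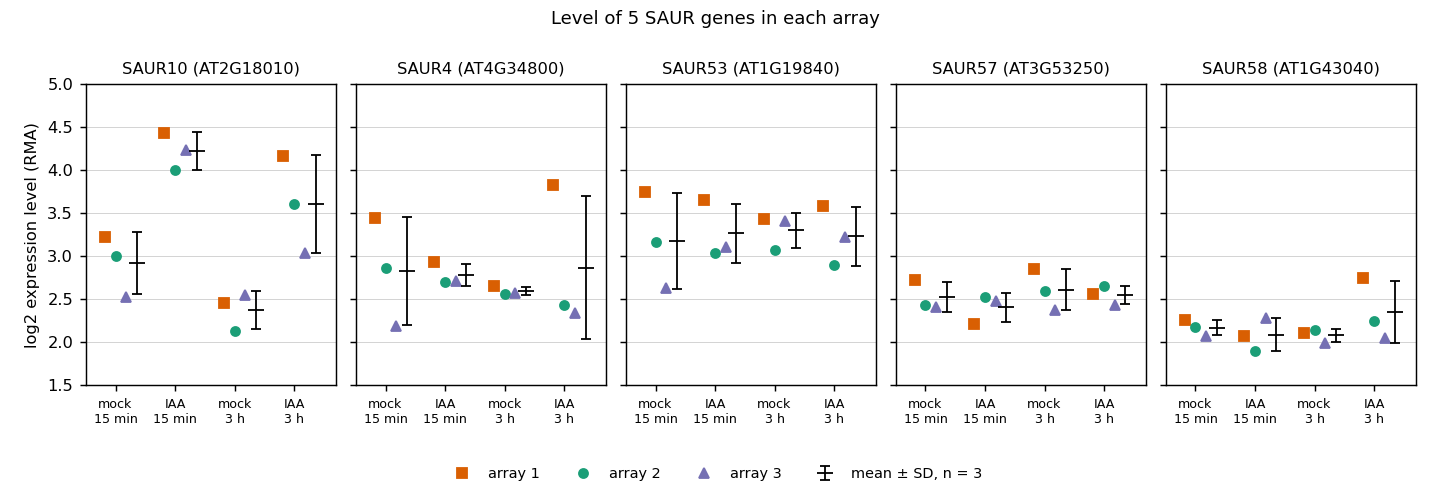
Log2 expression level (y axis) of the 5 SAUR genes in each of the 12 arrays, by treatment and time (x axis), with coloured points for arrays 1, 2 and 3 and black bars for the mean ± SD of 3 arrays. SAUR10 lies at 4.0 to 4.44 with IAA and 2.53 to 3.23 with mock at 15 min, while the IAA and mock points of the other 4 genes overlap at both times.

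Averaged over both times, SAUR10 rose 2.40-fold with IAA, a log2 change of 1.27 (SE 0.19, 95% interval 0.84 to 1.69; limma adjusted p 0.0333). It was higher in 6 of 6 same-numbered pairs of arrays, which follows from the separation given above and adds nothing to it. This averaged contrast was added after the data had been seen. It called 20 genes higher and 5 lower, or 0.143% of those tested, and 1 of the 5 SAUR genes. With the replicate number as a block 0.246% were called and the adjusted p of SAUR10 was 0.00984. Without the 4 arrays numbered 1 its log2 change was 1.17 (SE 0.16, adjusted p 0.0228), against 0.628% of probe sets called. Over 20 alternatives the adjusted p ran from 0.000194 to 0.125. The call was lost when any one of 9 of the 12 arrays was left out, namely the 3 IAA 15 min arrays, IAA 3 h array 2, mock 15 min arrays 2 and 3 and the 3 mock 3 h arrays, with log2 changes from 1.17 to 1.32 and adjusted p from 0.0754 to 0.125.

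Taken singly, neither time reached the threshold for SAUR10 without the block. At 15 min the mock mean was 2.92 ± 0.36 and the IAA mean 4.22 ± 0.22 (SD, n = 3 arrays), a log2 change of 1.31 (SE 0.27, 95% interval 0.70 to 1.91, limma adjusted p 0.831). This was the 9th largest rise and the 11th smallest p of 17504 probe sets. The unadjusted limma p was 0.000522. An unadjusted p under 0.05 was reached by 111 of 17504 probe sets at this time, of which SAUR10 was the 1 SAUR gene. That count is below the share of 0.05 expected if nothing changed. Without the arrays numbered 1 the count was 864, so the low count with all arrays is no sign that little changed. No gene was called at 15 min (0% of those tested), and 4 genes, 0.0229%, were called with the block, SAUR10 not among them (adjusted p 0.228). Without the arrays numbered 1 the log2 change was 1.35 (SE 0.23, adjusted p 0.245).

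At 3 h the mock mean of SAUR10 was 2.38 ± 0.22 and its IAA mean 3.60 ± 0.57 (SD, n = 3 arrays). The log2 change was 1.23 (SE 0.27, 95% interval 0.62 to 1.83). The limma adjusted p was 0.161, became 0.0462 with the replicate block, and over 21 alternatives lay between 0.00596 and 0.635. It was the 30th largest rise. The background at this time was 42 genes called, 0.24% of those tested, and 90 genes, 0.514%, with the block. SAUR10 was the 1 of 5 SAUR genes called with the block, and 0 of 5 were called without it. The same-numbered differences were 1.71, 1.48 and 0.48 at 3 h, against 1.21, 1.00 and 1.71 at 15 min. Array 3 thus gave the smallest difference at 3 h and the largest at 15 min. Without the arrays numbered 1 the log2 change at 3 h was 0.98 (SE 0.23, adjusted p 0.129), and without IAA 3 h array 1 alone it was 0.94 (SE 0.24).

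No difference in the SAUR10 response between 15 min and 3 h was detectable. Subtracting the earlier log2 change from the later gave -0.08 (SE 0.39, 95% interval -0.93 to 0.77, limma adjusted p 0.999), an interval too wide to tell a larger response at one time from the other. Without the 4 arrays numbered 1 it was -0.37 (SE 0.33). The difference was positive on leaving out any one of 4 single arrays (range over the 12 arrays -0.36 to 0.21), so its sign is not settled. This contrast called 2 genes, 0.0114% of those tested, and 3 genes, 0.0171%, with the block. It called 0 of the 5 SAUR genes, and 0 of them had an unadjusted p under 0.05, beside 333 of 17504 probe sets.

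The level itself was lower at 3 h under both treatments. In order of mean level the groups were IAA 15 min, IAA 3 h, mock 15 min and mock 3 h. The IAA 3 h arrays overlapped both the IAA 15 min arrays above them and the mock 15 min arrays below them, and the ranges of the 2 mock groups overlapped as well, so that neighbours in this order did not separate. From 15 min to 3 h the mean changed by -0.62 in IAA seedlings (SE 0.27, 95% interval -1.22 to -0.02; limma adjusted p 1, or 0.504 with the block). Among same-numbered IAA arrays the 3 differences were -0.27, -0.39 and -1.20. In mock seedlings it changed by -0.54 (SE 0.27, 95% interval -1.14 to 0.06; adjusted p 0.999 and 0.861), with differences of -0.77, -0.87 and 0.02. Neither change was called. Without IAA 3 h array 3 the change in IAA seedlings was -0.33 (SE 0.25). Without the arrays numbered 1 the changes were -0.79 in IAA and -0.42 in mock seedlings (SE 0.23). Between the mock groups 0 genes were called by limma, 0% of those tested. An unadjusted p under 0.05 was reached by 499 of 17504 probe sets, below the share of 0.05 expected if nothing changed. Without the arrays numbered 1 it was reached by 1958, above that share, and 118 genes, 0.674%, were called between the mock groups. The low count with all arrays is thus no sign that nothing changed with time. Between the IAA groups 13 genes were called, 0.0743%, and 0.274% with the block.

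**Figure D2:**
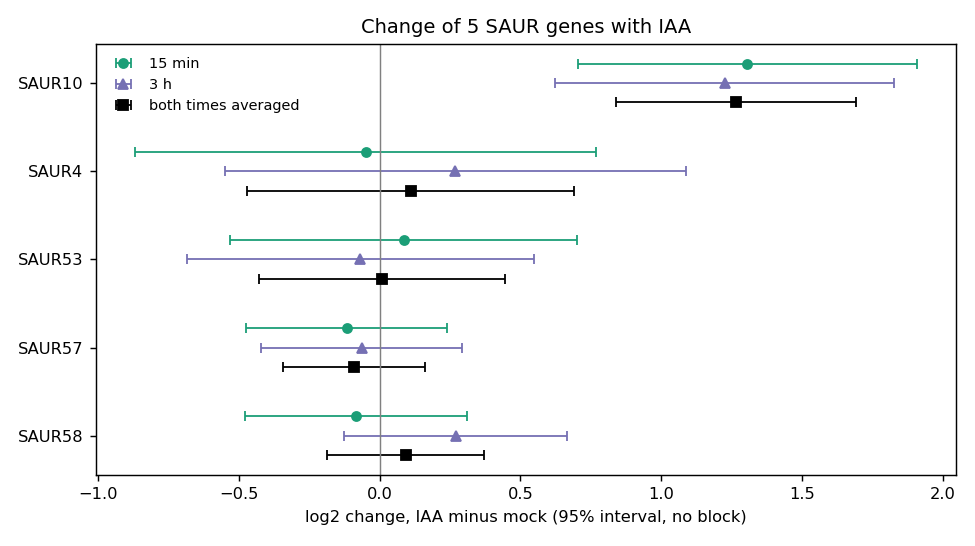
Log2 change with IAA relative to mock (x axis) of the 5 SAUR genes (y axis) at 15 min, at 3 h and averaged over both times, with bars for the 95% interval from the fit without the block. The 3 intervals of SAUR10 lie above 0, the lowest bound being 0.62, and those of the other 4 genes all include 0.

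SAUR4 was not called in any contrast. Its locus lies in a run of SAUR genes, with SAUR2 and SAUR3 on one side and SAUR5 on the other. At 15 min its level was 3.45, 2.86 and 2.19 in mock and 2.93, 2.71 and 2.71 in IAA. At 3 h it was 2.65, 2.57 and 2.57 in mock and 3.82, 2.43 and 2.34 in IAA. The IAA 3 h array numbered 1 stood more than 1 log2 unit above the others of its group, and the mock 15 min arrays were spread over more than 1 log2 unit. The log2 changes were -0.05 at 15 min and 0.27 at 3 h, each with an SE of 0.37 (95% intervals -0.87 to 0.77 and -0.55 to 1.09, limma adjusted p 1 and 0.811). Without the arrays numbered 1 they were 0.18 and -0.18 (SE 0.18), so both signs turned and the SE was smaller.

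SAUR53 was not called in any contrast. Its log2 level was 3.74, 3.16 and 2.63 in mock and 3.65, 3.03 and 3.11 in IAA at 15 min. At 3 h it was 3.43, 3.07 and 3.41 in mock and 3.58, 2.90 and 3.22 in IAA. The ranges overlapped at both times. Its log2 changes were 0.09 and -0.07 (SE 0.28), with 95% intervals of -0.53 to 0.70 and -0.68 to 0.55. Without the arrays numbered 1 they were 0.17 and -0.18 (SE 0.19), and leaving out 1 array at a time moved the change at 15 min between -0.19 and 0.37, so its sign is not settled. On the chromosome it lies beside MP, the auxin response factor gene also called ARF5, which is not analysed here.

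SAUR57 and SAUR58 were not called in any contrast either. SAUR57 ranged from 2.21 to 2.85 over the 12 arrays, and its log2 changes of -0.12 at 15 min and -0.06 at 3 h had the smallest SE of the 5 (0.16; 95% intervals -0.47 to 0.24 and -0.42 to 0.29). The SAUR57 changes without the arrays numbered 1 were 0.08 and 0.05 (SE 0.11), so both signs turned. SAUR58 ranged from 1.90 to 2.75. Its log2 change was -0.08 at 15 min (SE 0.18) and 0.27 at 3 h (95% interval -0.13 to 0.66). At 3 h the SAUR58 differences of same-numbered arrays were 0.64, 0.11 and 0.06, all positive, with the IAA and mock ranges overlapping. The SAUR58 changes without the arrays numbered 1 were -0.03 at 15 min and 0.09 at 3 h (SE 0.14). The upper bounds of these intervals at 15 min, 0.24 for SAUR57 and 0.31 for SAUR58, lie below the SAUR10 estimate of 1.31. Those of SAUR4 and SAUR53 reach 0.77 and 0.70, where the interval of SAUR10 itself begins at 0.70.

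Over the 5 genes the median log2 change was -0.05 at 15 min and 0.27 at 3 h, beside medians of 0.00035 and 0.06 over all probe sets tested. At 15 min 2 of the 5 changes were positive and at 3 h 3. The SAUR medians without the arrays numbered 1 were 0.17 and 0.05, with 4 and 3 of the 5 changes positive, beside 0.0043 and 0.00012 over all probe sets. The sign of the median at 15 min thus turned, and the median at 3 h moved close to that of all probe sets. No SAUR gene but SAUR10 had an unadjusted p under 0.05 in any of the 6 contrasts, with or without the block. Over all 17504 probe sets, 111 to 851 had one in a contrast without the block and 214 to 1898 with it. Against so small a background, none among 4 genes is no result about them. To compare SAUR10 with its relatives within arrays, the mean of the other 4 genes was subtracted from SAUR10 in each array. The response to IAA of this difference was 1.35 at 15 min and 1.12 at 3 h, with no overlap of IAA and mock arrays at either time. It is given as a description, since an exact permutation test of 3 arrays against 3 cannot go below p 0.1.

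All 5 genes lay below the median of every array. As a percentile of all probe sets of the same array, SAUR10 was between 13 and 29.1 in the mock arrays and between 29.8 and 45.5 in the IAA arrays. RMA compresses differences near background, and its part in the SAUR10 folds was not tested. Over the 12 arrays SAUR53 lay between percentiles 23.7 and 36.4, SAUR4 between 14.4 and 34, SAUR57 between 8.44 and 26.9 and SAUR58 between 5.84 and 16.1. Read as a percentile, SAUR58 on the IAA 3 h array numbered 1 (13.4) fell between the other 2 arrays of its group (15.6 and 10.5), although its log2 level was the highest of the 3. SAUR4 on that array stayed apart also as a percentile, at 34 against 19.6 and 17. For SAUR57 the IAA arrays numbered 1 were low on this scale, at 8.44 and 10, against 19.1 to 23.9 on the other IAA arrays.

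**Figure D3:**
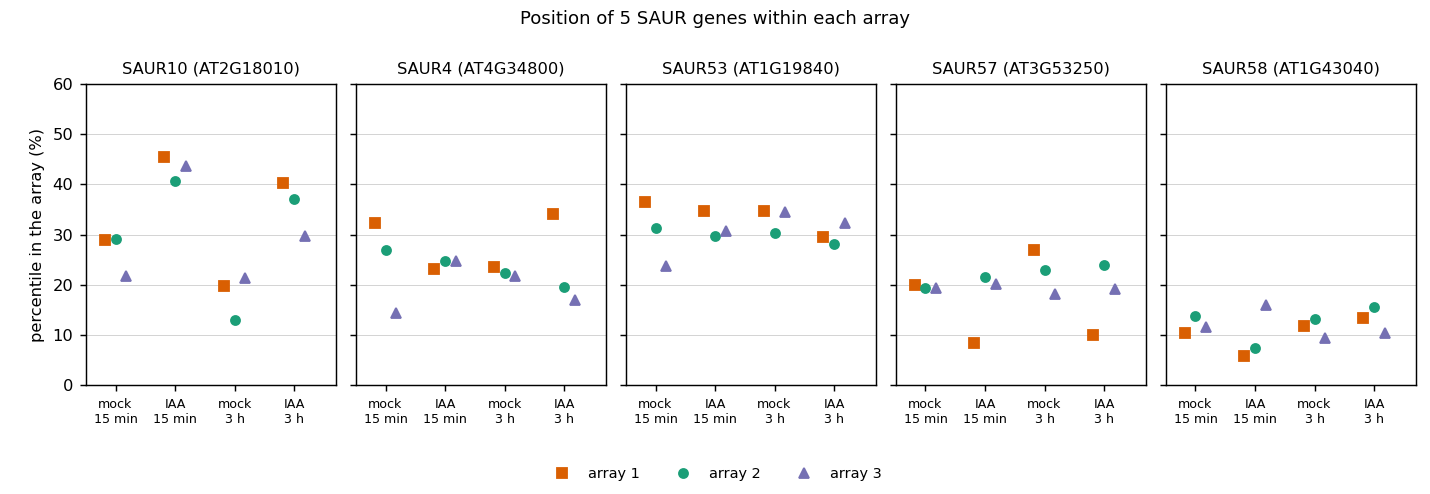
Percentile of the 5 SAUR genes among all 28583 probe sets of the same array (y axis), by treatment and time (x axis), with 1 point for each of 3 arrays. The IAA arrays of SAUR10 lie at 29.8 to 45.5 and its mock arrays at 13 to 29.1, while no other SAUR gene separates by treatment.

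For other parts of the SAUR pathway few genes could be matched to a probe set by name. The unmatched genes may lie among the probe sets with no gene named, which was not tested. Of the 9 PP2C.D phosphatase genes, whose products SAUR proteins inhibit, 4 were measured and 0 were called in any contrast, with or without the block, where at most 0.24% and 0.514% of all probe sets were called. AT3G17090 had the smallest p of them at 15 min, with a log2 change of 0.22 (SE 0.25, adjusted p 1). AT3G55050 had it at 3 h, with -0.32 (SE 0.19, adjusted p 0.78). The median of the 4 changes was 0.07 at 15 min and -0.06 at 3 h. At 3 h 1 of the 4 changes was positive, and 3 of 4 without the arrays numbered 1, so these directions are not settled. The group means of the 4 phosphatase genes ran from 5.04 to 7.74 on the log2 scale.

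Of the 29 Aux/IAA repressor genes 8 were measured. IAA29, which encodes a repressor induced by auxin itself, was the 1 called at 3 h (log2 change 2.73, SE 0.25, limma adjusted p 0.00081), and the other 7 did not pass, beside 0.24% of all probe sets called. The change of IAA29 at 3 h without the arrays numbered 1 was 3.02 (SE 0.20, adjusted p 0.000489). Its change at 15 min was 1.00 (SE 0.25, adjusted p 1). Averaged over both times IAA29 rose by 1.86 (SE 0.18, adjusted p 0.00233), beside 0.143% of all probe sets called. The mean log2 level of IAA29 in IAA seedlings was 3.72 at 15 min and 5.21 at 3 h (adjusted p 0.0728, or 0.0405 with the block and 0.00488 without the arrays numbered 1), while that of SAUR10 was 4.22 and 3.60. Whether these time courses differ was not tested. The 6 TIR1/AFB receptor genes, the 23 ARF genes, the 11 AHA proton pump genes and 4 touch-response genes matched no single-gene probe set by name and are not analysed here.

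Among genes outside the family, those whose levels followed SAUR10 most closely over the 12 arrays were AT1G53163 (Pearson r 0.92), AT3G60040 (0.89), AT3G28420 (0.87), AT3G01325 (0.86) and AT5G41400 (0.86). The arrays share treatment groups and replicate numbers, so these values are a description. Over the 8 arrays numbered 2 and 3 the correlations were 0.97, 0.88, 0.78, 0.75 and 0.94. AT5G41400 had the largest changes of the 5, with log2 values of 1.17 at 15 min and 0.88 at 3 h (limma adjusted p 0.1 and 0.069). The other 4 had changes of 0.13 to 0.51. None of the 5 was called at either time, with or without the block. Within the SAUR family the correlation with SAUR10 ran from -0.31 for SAUR57 to 0.47 for SAUR4, and from -0.02 to 0.37 over the 8 arrays. The correlation of SAUR4 with SAUR58 went from 0.73 over 12 arrays to 0.11 over those 8.

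Of the 80 SAUR loci in the RefSeq table, 34 lie directly next to another SAUR locus. The direct neighbours of SAUR10 are TAF14 and EMB2296, neither of them a SAUR gene nor analysed here. The nearest measured gene on that side, AT2G17990, 2 places from SAUR10, had log2 changes of -0.23 at 15 min and 0.33 at 3 h (SE 0.21, adjusted p 1 and 0.78). Whether the SAUR4 probe set also takes up transcripts of its SAUR neighbours was not tested.

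**Figure D4:**
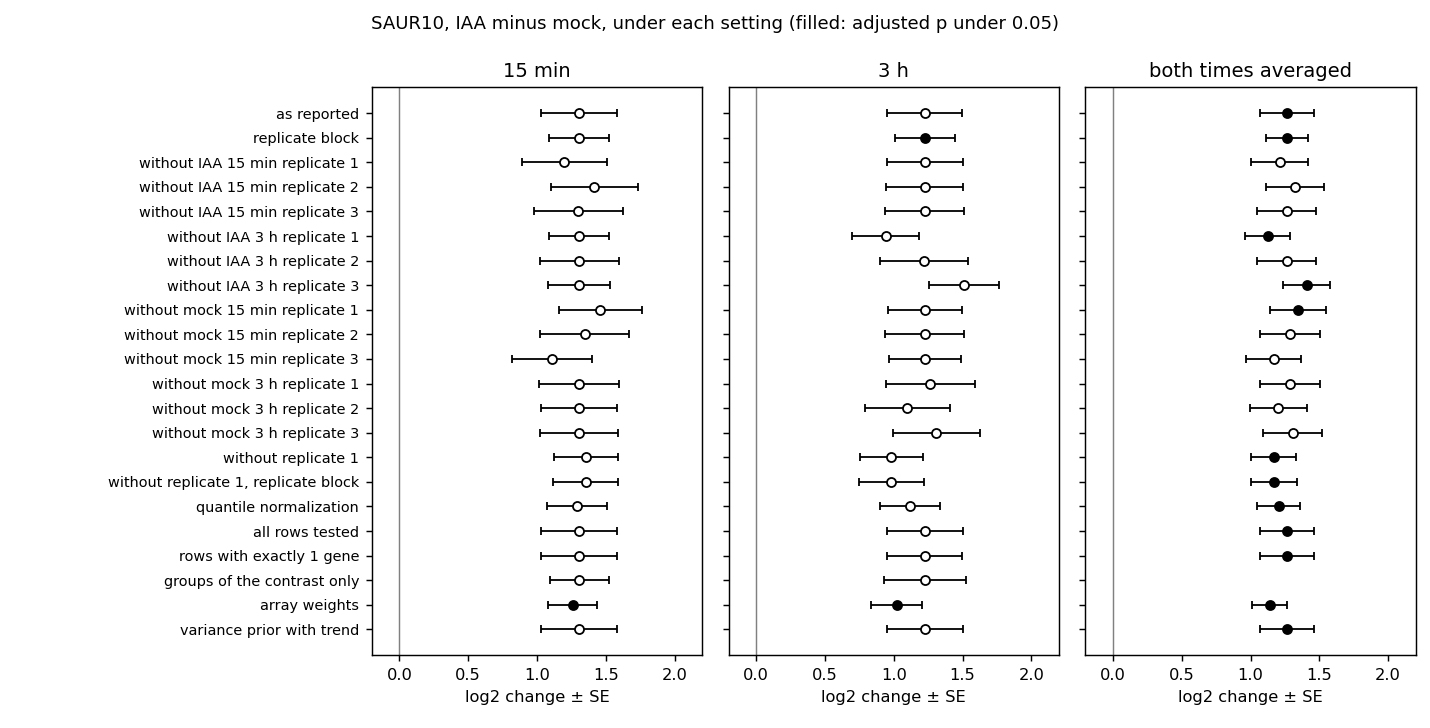
Log2 change of SAUR10 with IAA relative to mock, ± SE (x axis), as reported and under each alternative setting (y axis), at 15 min, at 3 h and averaged over both times, with filled points where the adjusted p was under 0.05. The estimates run from 1.11 to 1.46 at 15 min, from 0.94 to 1.51 at 3 h and from 1.12 to 1.41 for the average, and all lie above 0.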

How the data were processed

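The authors deposited log2 expression values per probe set. Per the submitters' processing notes these come from RMA and the oligo package, versions not stated. The sources used here give no genome build. Total RNA labelled with biotin was run on 12 Affymetrix Gene 1.1 ST arrays. Groups came from the sample titles. Of 28583 probe sets, 17504 have a gene name in the platform annotation. Of the 16746 with exactly 1 gene, 16601 were matched to the RefSeq table (TAIR10.1) by gene number and 96 by locus tag, the SAUR genes among the latter.

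The log2 values were used as deposited. One linear model with the 4 groups and no block was fitted to the 17504 named probe sets with limma 3.58.1 (R 4.3.3; lmFit, contrasts.fit and eBayes) (residual degrees of freedom 8, prior 3.52). The code was tested on simulated data. Python 3.11.15 with pandas 2.3.3, scipy 1.17.1 and matplotlib 3.10.9 did the rest.

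Same-numbered IAA and mock arrays deviated together from their group means, with correlations of 0.639 to 0.781 at 15 min and a weaker 0.117 to 0.172 at 3 h. The arrays numbered 1 differ from the others in spread, and these correlations were not computed without them. They therefore cannot tell a pairing of the arrays from that shared difference. A fit blocked on the replicate number is given as an alternative beside the fit without a block. Between the mock groups the correlations were 0.0628 to 0.206, 2 of them under 0.1, so same-numbered arrays deviated together only weakly across times.

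Every SAUR gene is named. Of each pathway list the genes called in a contrast are named, otherwise the gene with the smallest p at 15 min and at 3 h, and for likeness the 5 genes with the highest correlation. The members and lists were chosen with earlier results of these data known. Sequences are not shown.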

Additional observations from a re-analysis of the deposited data

How the results depend on the processing

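The direction of the SAUR10 change with IAA at 15 min, at 3 h and averaged was the same under all alternatives that gave a value, with log2 changes from 1.11 to 1.46, from 0.94 to 1.51 and from 1.12 to 1.41 on leaving out 1 array. The filter on dim probe sets removed all 5 SAUR genes and gave no value, and a fit to the groups of one contrast alone does not exist for the averaged change or the difference. Array weights brought SAUR10 past the threshold at 15 min (1.26, adjusted p 0.00724), at 3 h (1.02, adjusted p 0.00596) and for IAA 3 h against IAA 15 min (-0.86, adjusted p 0.0188). Each time it was the 1 SAUR gene called, against 0 as reported. With these weights 42, 546 and 673 of the 17504 probe sets were called, against 0, 42 and 13 as reported, so the gain was not particular to SAUR10. The replicate block brought SAUR10 past the threshold at 3 h (1.23, adjusted p 0.0462), where it called 0.514% of probe sets against 0.24%. The block changed no other SAUR call. The cause was not tested. Leaving out 1 array gave 0 to 1 SAUR genes for the averaged contrast. The difference between the times was positive without IAA 15 min array 1 (0.03), IAA 3 h array 3 (0.21), mock 15 min array 3 (0.12) and mock 3 h array 3 (0.0037), and ran from -0.36 to 0.21. Without all 4 arrays numbered 1 it was -0.37. The other 4 SAUR genes were called under none of 22 settings at either time (lowest adjusted p 0.936 at 15 min and 0.459 at 3 h). Over the settings 0 to 42 of all probe sets tested were called at 15 min and 6 to 546 at 3 h. Against so small a background, none among 4 genes is no result about them.

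Counts of all genes called moved more. Against 0, 42, 2, 0, 25 and 13 for 15 min, 3 h, the difference, mock over time, the average and IAA over time, array weights gave 42, 546, 127, 458, 395 and 673, leaving out the 4 arrays numbered 1 gave 11, 163, 21, 118, 110 and 352, and the block 4, 90, 3, 0, 43 and 48. Leaving out 1 array gave 0 to 5, 8 to 61, 1 to 8, 0, 8 to 39 and 2 to 51. A fit to the groups of the contrast alone called 6 at 3 h and 0 for IAA over time. Quantile normalization gave 4, 42, 5, 0, 26 and 22. All rows, a larger set of 28583 probe sets that includes those with no gene named, gave 12, 93, 5, 0, 62 and 46. The filter on dim probe sets, which kept only named probe sets with a mean level above the median, gave 3, 26, 2, 0, 17 and 9. The counts of these last 2 settings are over other sets of probe sets and do not compare directly with the rest. All 5 SAUR genes lay below the median signal of every array, and the part of low signal in their results was not tested.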
